A study of Mus musculus with 8 samples.

Results

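Hyaluronan and the large proteoglycans that bind it were followed through 8 genes, picked by symbol from a table of 27249 genes. They are the hyaluronan synthases Has1, Has2 and Has3, the hyaluronidases Hyal1 and Hyal2, the hyaluronan receptor Cd44, and the core proteins of versican (Vcan) and aggrecan (Acan). A row was found for all 8 genes, and 7 of them held enough reads to be tested; Acan did not. The data were RNA-seq of polyadenylated RNA in 8 libraries, which form 4 groups of 2, called pairs here. Vascular smooth muscle cells, the contractile cell type of arteries, were used as primary mouse cultures. Cells of 2 groups, labelled wild type, overexpressed GFP, an inert fluorescent protein, and those of the other 2 overexpressed THOC5, which belongs to the THO complex, a link between transcription and mRNA export. Of each kind of cell, 1 group was kept in growth medium and 1 in osteogenic medium. The design text describes the latter as 6 days with inorganic phosphate (Pi), a culture model of arterial calcification. The sources used here do not give the vector, the promoter, the strain or the age of the mice. The labels do not say that the libraries of a group came from separate cultures, so the p-values measure only the spread between these libraries, which may be technical. In bulk RNA, fewer cells of a type and less RNA per cell cannot be told apart.

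Hyaluronan is a long unsulfated sugar chain that the HAS enzymes spin out through the plasma membrane from the cytosolic sugar nucleotides UDP-glucuronic acid and UDP-N-acetylglucosamine. HYAL2, anchored at the cell surface, cuts the long chains, and HYAL1 degrades the fragments in lysosomes. CD44 is the main hyaluronan receptor of many cells and ties the chain to the actin cytoskeleton. Versican and aggrecan are chondroitin sulfate proteoglycans whose amino-terminal domain binds hyaluronan, so that many core proteins can sit on 1 chain and hold water. Versican is abundant in the artery wall and its lesions, aggrecan in cartilage, and hyaluronan-rich matrix accumulates around proliferating and migrating smooth muscle cells.

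In the GENCODE M21 annotation of GRCm38, Has1 lies on chromosome 17 (17843323 to 17855205), Has2 on chromosome 15 (56665627 to 56694539) and Has3 on chromosome 8 (106870242 to 106884566). Hyal2 (107567945 to 107572779) and Hyal1 (107576927 to 107581710) are neighbours on chromosome 9. Cd44 lies on chromosome 2 (102811141 to 102901665), Vcan on chromosome 13 (89655312 to 89742509) and Acan on chromosome 7 (79053483 to 79115099). Because the kit, as the labels name it, keeps no strand information, reads of overlapping genes cannot be told apart. Has2 shares 182 bases, 4.3% of its exons, with the antisense gene Has2os, which held 0 to 3 reads per library. Has3 shares 352 bases (5.5%) with Chtf8 on the other strand. Hyal1 shares 1920 bases (50.8%) with Naa80, an actin N-acetyltransferase gene on the same strand, so its counts are uncertain. The table has 1 value per gene, so the splice forms of Cd44 and Vcan were not separated.

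Promoter windows of 250 bases before to 50 bases after the transcription start were read from RefSeq on GRCm38.p6, in which 6 of the 8 members matched (all but Has2 and Has3). Of these, 3 are shown because they belong to members that passed a test below, Has1 and Vcan in one direction and Cd44 in the other. Has1 is the window chr17:17855139-17855438, Cd44 is chr2:102901616-102901915 and Vcan is chr13:89742463-89742762, all on the minus strand. Capitals mark matches, on either strand, to any of 7 motifs. The cAMP response element was searched as TGACGTCA and the antioxidant response element as TGACNNNGC. The AP-1 site was searched as TGANTCA, the GC box by the letters GGGCGG, the TATA box by the letters TATAAA, and the CCAAT box and the CArG box by those names.
Has1: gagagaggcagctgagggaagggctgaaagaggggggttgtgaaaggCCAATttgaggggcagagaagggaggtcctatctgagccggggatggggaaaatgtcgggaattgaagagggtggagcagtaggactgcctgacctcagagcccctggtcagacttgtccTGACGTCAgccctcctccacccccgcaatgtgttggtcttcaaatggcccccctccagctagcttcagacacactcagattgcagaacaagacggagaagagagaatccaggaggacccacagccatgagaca
Cd44: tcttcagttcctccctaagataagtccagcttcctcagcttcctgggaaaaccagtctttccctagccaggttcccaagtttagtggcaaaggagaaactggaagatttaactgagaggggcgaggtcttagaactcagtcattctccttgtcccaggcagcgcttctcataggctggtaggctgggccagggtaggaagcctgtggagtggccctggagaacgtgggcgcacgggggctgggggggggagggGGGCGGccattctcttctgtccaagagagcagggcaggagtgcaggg
Vcan: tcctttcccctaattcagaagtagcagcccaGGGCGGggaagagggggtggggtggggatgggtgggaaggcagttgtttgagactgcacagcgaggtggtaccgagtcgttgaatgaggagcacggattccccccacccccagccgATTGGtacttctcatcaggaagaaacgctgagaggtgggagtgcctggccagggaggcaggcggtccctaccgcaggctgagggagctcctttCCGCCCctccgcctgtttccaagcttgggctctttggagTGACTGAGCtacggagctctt
The Has1 window held a cAMP response element that begins 83 bases before the start, a motif found in 1.79% of 32841 promoters of this length, and a CCAAT box at 203 bases. A GC box in the Cd44 window begins 3 bases after the start. The Vcan window held a CCAAT box at 103 bases before the start, GC boxes at 219 and 10 bases, and an antioxidant response element that begins 29 bases after the start. CCAAT boxes were found in 37.4% of all promoters, GC boxes in 35.7%, antioxidant response elements in 12.4%, AP-1 sites in 7.81%, TATA boxes in 13.6% and CArG boxes in 1.63%. E-boxes (CANNTG), present in 72.3%, were not marked. The marked matches in these 3 windows do not overlap each other, and a match or its lack is a description of the letters only.

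The libraries held 7058681 to 10581042 reads on genes. Thoc5, read first as a check of the labels, stood at 458 and 471 normalized counts in the GFP growth pair, 649.5 and 615 in the GFP osteogenic pair, 2155 and 1406 in the THOC5 growth pair, and 1780.2 and 1937 in the THOC5 osteogenic pair. A normalized count is the number of reads on a gene divided by 1 size factor per library. The table does not separate reads of the introduced gene from those of the endogenous one. Thoc5 was higher with overexpression in growth medium (log2 difference 1.90 ± 0.15 (SE), limma adjusted p = 0.00187) and in osteogenic medium (1.55 ± 0.15, limma adjusted p = 5.24e-05). The growth medium call held in 9 of 17 alternatives. It was lost with any value above 0 as the filter (limma adjusted p = 0.377), with only the 4 libraries compared (0.811) and, with limma adjusted p between 0.0813 and 0.928, without either GFP growth library, either GFP osteogenic library or either THOC5 osteogenic library, while the log2 difference stayed between 1.60 and 2.21 in all 17 alternatives. The GFP osteogenic pair lay away from the other 6 libraries, at 84.2 and 65.9 on the first principal component (32.6% of the variance) against -34.8 to -18.4.

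Per length of exon, Cd44 was the most abundant member in every group and Acan the least. Normalized reads per kilobase of exon were 405 ± 19.8 for Cd44 in the GFP growth pair (mean ± SD, n = 2 libraries here and below), 105 ± 21.1 for Vcan, 72.6 ± 0.455 for Hyal2 and 57.1 ± 14.4 for Hyal1. The synthases followed at 16.3 ± 3.17 for Has2, 10.2 ± 1.34 for Has1 and 6.31 ± 0.377 for Has3. Hyal1 and Hyal2 did not overlap between libraries in this group, at 46.9 and 67.2 against 72.9 and 72.3. The order Cd44, Vcan, Hyal2, Hyal1, Has2, Has1, Has3 held in both THOC5 pairs too, and in these 3 pairs no neighbours in it overlapped between libraries. The place of Hyal1 in this order is uncertain, because 50.8% of its exon bases are shared with Naa80 and the way of counting is not given. In the GFP osteogenic pair several neighbours could not be separated: Hyal1 at 75.3 ± 9.73, Vcan at 74.0 ± 6.32 and Hyal2 at 72.9 ± 12.4 overlapped, as did Has1 at 6.54 ± 1.67, Has2 at 5.51 ± 0.865 and Has3 at 5.32 ± 1.20.

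Among the synthases, Has2 is the form that most mesenchymal cells, smooth muscle included, use for bulk hyaluronan. Has2 stood at 59.4 and 78.4 normalized counts in the GFP growth pair, 20.8 and 25.9 in the GFP osteogenic pair, 75.3 and 106 in the THOC5 growth pair, and 72.7 and 79.8 in the THOC5 osteogenic pair. Both GFP osteogenic libraries lay below all 6 others. Has1, another of the 3 isoforms, stood at 42.0 and 50.5, then 24.2 and 34.9, then 42.5 and 47.8, then 58.2 and 54.4 normalized counts in the same order of groups. Its GFP osteogenic libraries were again the lowest pair, and its THOC5 osteogenic libraries the highest. Has3 stood at 42.0 and 38.5, then 28.5 and 39.4, then 25.1 and 39.2, then 30.0 and 32.9 normalized counts, and its groups overlapped except that the THOC5 osteogenic libraries lay below the GFP growth libraries. These are small numbers: Has2 rested on 24 to 111 reads per library, Has1 on 28 to 64 and Has3 on 26 to 44.

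**Figure D1:**
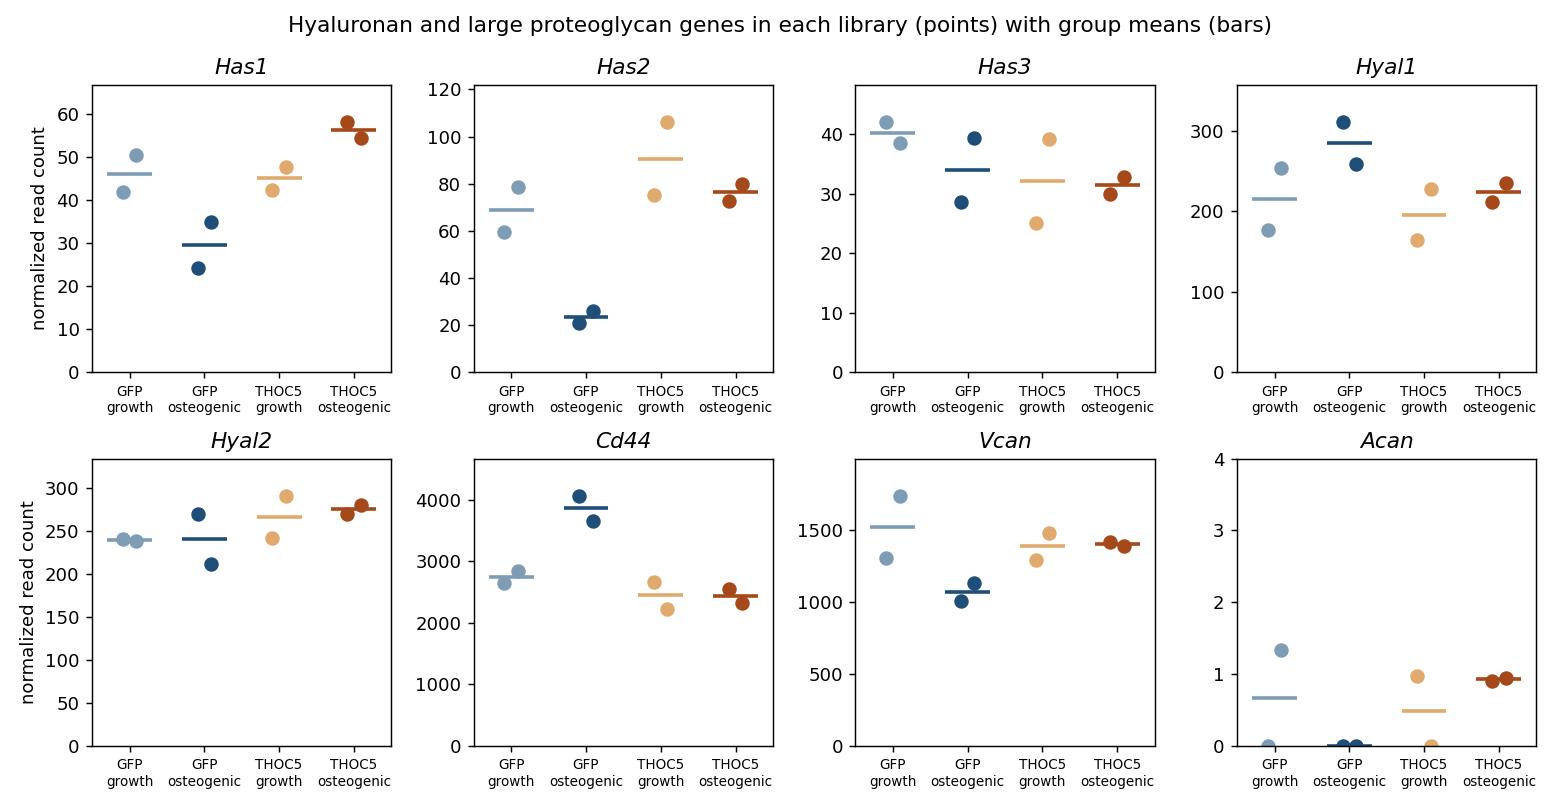
Normalized read count (y axis, linear, from 0) of each of the 8 genes in each library (points) with the mean of the 2 libraries of a group (bar), for GFP and THOC5 cells in growth and osteogenic medium. Has2 sits at 20.8 and 25.9 in the GFP osteogenic libraries and at 59.4 or above in the other 6, while Cd44 is at 3659 and 4058 in the GFP osteogenic libraries and at 2837 or below elsewhere.

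Summed per length, the 3 synthases held 29.9 and 35.7 normalized reads per kilobase in the GFP growth pair and 14.7 and 20.0 in the GFP osteogenic pair. The sum was 31.1 and 41.7 in the THOC5 growth pair and 34.7 and 36.0 in the THOC5 osteogenic pair. The share of Has2 in that sum was 46.9% and 51.8% in the GFP growth pair and 33.3% and 30.6% in the GFP osteogenic pair. It was 57.1% and 60.0% in the THOC5 growth pair and 49.4% and 52.3% in the THOC5 osteogenic pair. Has2 was the largest part of the sum in the 6 libraries outside the GFP osteogenic group. In that group Has1 was, at 36.4% and 38.6%, with Has3 at 30.4% and 30.8%. The levels of the 3 overlapped between its libraries, so their order there is not settled. These shares are a description with no test.

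**Figure D2:**
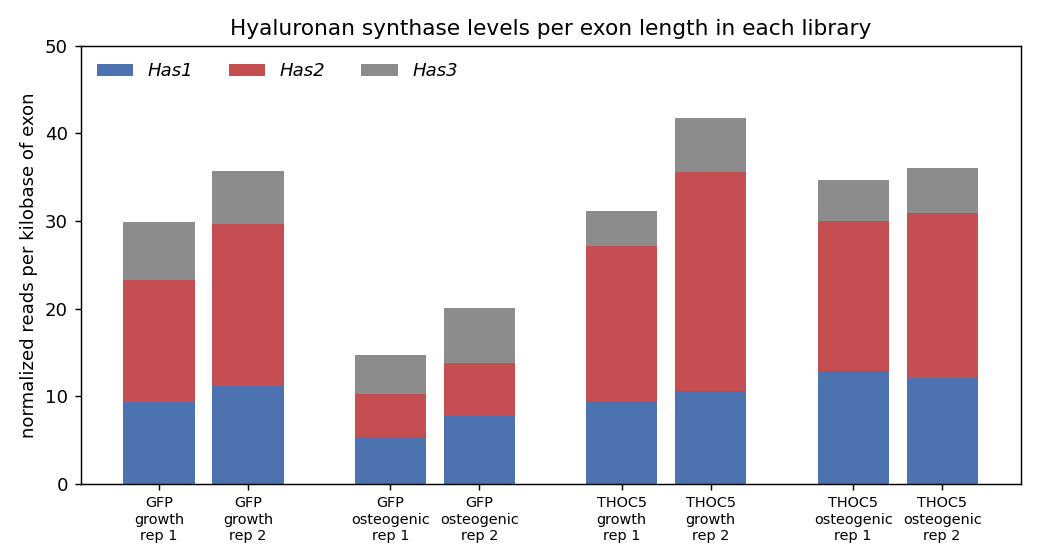
Stacked bars of Has1, Has2 and Has3 in normalized reads per kilobase of exon (y axis, linear, from 0) for each of the 8 libraries. The Has2 part shrinks to 33.3% and 30.6% of the sum in the GFP osteogenic libraries and makes up 46.9% to 60.0% of it in the others.

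The hyaluronidases did not pass in any comparison. Hyal1, the lysosomal enzyme, stood at 177 and 254 normalized counts in the GFP growth pair, 310.5 and 258 in the GFP osteogenic pair, 164 and 227 in the THOC5 growth pair, and 212 and 236 in the THOC5 osteogenic pair. Its GFP osteogenic libraries were the highest pair, by a narrow margin over 1 GFP growth library. Naa80, with which Hyal1 shares sequence, differed between media in GFP cells by log2 0.08 ± 0.17 (limma adjusted p = 0.802). Hyal2, the surface enzyme, stood at 240.1 and 238, then 269 and 211, then 241 and 290.3, then 269.9 and 279.7 normalized counts in the same order, and its pairs overlapped except that both THOC5 pairs lay above the GFP growth pair and the THOC5 osteogenic pair lay just above the GFP osteogenic pair.

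Cd44, the receptor, stood at 2647 and 2837 normalized counts in the GFP growth pair, 4058 and 3659 in the GFP osteogenic pair, 2661 and 2227 in the THOC5 growth pair, and 2547 and 2316 in the THOC5 osteogenic pair. The GFP osteogenic libraries were above all 6 others, and the other 3 groups overlapped except that THOC5 osteogenic lay below GFP growth. Vcan, the smooth muscle proteoglycan, stood at 1305 and 1736, then 1005 and 1134, then 1292 and 1480.3, then 1420.3 and 1391 normalized counts. Its GFP osteogenic libraries were below all 6 others, and the other groups overlapped. Acan had 1 read in each of 4 libraries (1 GFP growth, 1 THOC5 growth and both THOC5 osteogenic) and 0 in the other 4. A count of 0 allows up to 3 reads, which is 2.59 to 3.99 normalized counts depending on the library and covers counting error only. No difference in Acan was detectable at this depth.

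The first comparison asked what osteogenic medium changed in GFP cells. Has2 and Vcan fell and Cd44 rose, so that of the 7 tested members 3 passed, 1 higher and 2 lower. Over all 22575 genes tested 20.8% passed in this comparison, 10.3% higher and 10.6% lower, and the share among 7 genes was not compared with it by a test. Has2 fell 2.86-fold (log2 -1.52 ± 0.23, 95% interval -2.03 to -1.01, limma adjusted p = 0.000937), from 68.9 ± 13.4 to 23.3 ± 3.66 normalized counts. Cd44 rose 1.41-fold (log2 0.49 ± 0.10, limma adjusted p = 0.00577), from 2742 ± 134 to 3859 ± 282. Vcan fell 1.41-fold (log2 -0.50 ± 0.13, limma adjusted p = 0.0174), from 1521 ± 305 to 1069.6 ± 91.3.

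The other synthases and both hyaluronidases did not pass in that comparison. Has1 had a log2 difference of -0.65 ± 0.24 (limma adjusted p = 0.0819). Has3 had -0.26 ± 0.28 with a 95% interval of -0.87 to 0.36. Hyal1 had 0.42 ± 0.19 (limma adjusted p = 0.158) and Hyal2 -0.00 ± 0.14, with an interval of -0.30 to 0.29. The median log2 difference of the 7 members was -0.26, beside 0.00 over all genes.

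Has2 kept its call in all 17 alternatives (limma, edgeR or DESeq2 adjusted p 0.000186 to 0.0375), whereas that of Cd44 held in 14 and that of Vcan in 11 of 17. The Cd44 call was lost without GFP growth replicate 1 (limma adjusted p = 0.0937), GFP growth replicate 2 (0.0617) or GFP osteogenic replicate 1 (0.0823), in a range of 0.000145 to 0.0937 over its alternatives. Vcan lost its call without GFP growth replicate 2, where its log2 difference was -0.29 (limma adjusted p = 0.179), without GFP osteogenic replicate 1 (0.186) and without GFP osteogenic replicate 2 (0.0541), in a range of 0.00176 to 0.186. It was also lost with any value above 0 as the filter (limma adjusted p = 0.0607) and with only the 4 libraries compared (0.120). With reads scaled to library totals in place of the size factors, the log2 median over all genes shifted by 0.13 and the split of all calls from 2314 higher and 2384 lower to 3720 and 1686. Vcan was then at -0.35 (limma adjusted p = 0.0756). Has1 passed with 1 alternative, a filter of at least 10 normalized counts in 2 libraries (limma adjusted p = 0.0467, in a range of 0.0467 to 0.387).

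**Figure D3:**
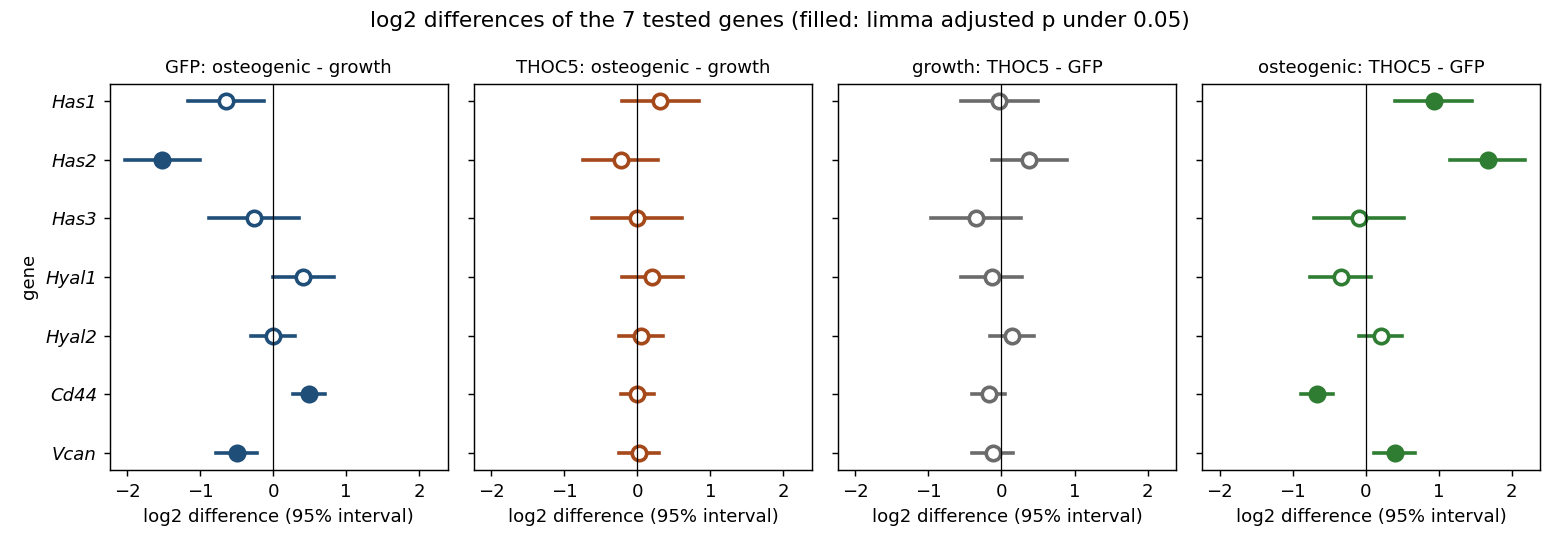
Log2 differences with 95% intervals (x axis) of the 7 tested genes (y axis) in 4 comparisons, where filled points have a limma adjusted p under 0.05. Has2 lies at -1.52 in GFP cells between media and at 1.67 between THOC5 and GFP cells in osteogenic medium, 2 comparisons that share the GFP osteogenic libraries, and no point is filled in the 2 panels between.

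The second comparison asked the same of THOC5 cells, in which 0 of the 7 tested members passed, beside 0.540% of all genes tested (0.532% higher and 0.00886% lower). By limma, 0 members had an unadjusted p under 0.05, and edgeR and DESeq2 also called 0. Has2 differed by log2 -0.23 ± 0.23 with a 95% interval of -0.74 to 0.28. Cd44 differed by -0.00 ± 0.10 (interval -0.23 to 0.22) and Vcan by 0.02 ± 0.13 (interval -0.26 to 0.30). Has1 differed by 0.31 ± 0.24, Has3 by 0.00 ± 0.28, Hyal1 by 0.21 ± 0.19 and Hyal2 by 0.05 ± 0.14. The limma adjusted p-values lay between 0.928 and 1.

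The third comparison set THOC5 against GFP cells in growth medium, where 0 of the 7 tested members passed, beside 0.00443% of all genes, which is Thoc5 alone. By limma 0 members had an unadjusted p under 0.05, and edgeR and DESeq2 called 0. Has2 had a log2 difference of 0.38 ± 0.23 (95% interval -0.13 to 0.89), Has1 of -0.03 ± 0.24 and Has3 of -0.35 ± 0.28. Cd44 had -0.17 ± 0.10 (interval -0.40 to 0.06), Vcan -0.12 ± 0.13, Hyal1 -0.13 ± 0.19 and Hyal2 0.15 ± 0.14. Intervals of this width do not show that the levels were alike.

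The fourth comparison, THOC5 against GFP cells in osteogenic medium, addressed how added THOC5 relates to expression under osteogenic conditions. Has2, Has1 and Vcan were higher in THOC5 cells and Cd44 was lower, so that 4 of the 7 tested members passed. Over all genes 22.0% passed, 11.3% higher and 10.7% lower. Has2 was 3.19-fold higher (log2 1.67 ± 0.23, 95% interval 1.16 to 2.18, limma adjusted p = 0.000449), at 76.2 ± 5.01 against 23.3 ± 3.66 normalized counts. Has1 was 1.90-fold higher (log2 0.93 ± 0.24, limma adjusted p = 0.0164), at 56.3 ± 2.63 against 29.5 ± 7.54. Vcan was 1.32-fold higher (log2 0.40 ± 0.13, limma adjusted p = 0.0458), at 1406 ± 20.7 against 1069.6 ± 91.3. Cd44 was 1.59-fold lower (log2 -0.67 ± 0.10, limma adjusted p = 0.000880), at 2431 ± 164 against 3859 ± 282.

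Has3 (log2 -0.09 ± 0.28), Hyal1 (-0.34 ± 0.19, limma adjusted p = 0.252) and Hyal2 (0.20 ± 0.14, limma adjusted p = 0.343) did not pass in osteogenic medium. The median log2 difference of the 7 members was 0.20, beside 0.00 over all genes. This comparison shares the GFP osteogenic libraries with that of the media in GFP cells, so the calls of Has2, Cd44 and Vcan in both are not independent.

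The calls of Has2 and Cd44 in osteogenic medium held in all 17 alternatives, with adjusted p of 1.84e-05 to 0.0279 and of 7.75e-08 to 0.0332 by limma, edgeR or DESeq2. The Has1 call held in 13 of 17, in a range of 0.00688 to 0.136. It was lost without GFP osteogenic replicate 1 (log2 0.67, limma adjusted p = 0.136), THOC5 osteogenic replicate 1 (0.107) or THOC5 osteogenic replicate 2 (0.0946). A fit of the 4 compared libraries alone lost it too (limma adjusted p = 0.0842). The Vcan call held in 7 of 17, in a range of 0.0169 to 0.298. It was lost without either GFP osteogenic library (limma adjusted p = 0.298 and 0.0938), either THOC5 growth library (0.0635 and 0.0634) or either THOC5 osteogenic library (0.211 and 0.200). It was also lost with a pseudocount of 0.5 (0.0519), with any value above 0 as the filter (0.111) and with only the 4 libraries compared (0.0570). Scaling to library totals shifted the log2 median over all genes by -0.16 and the split of calls from 2550 higher and 2413 lower to 1662 and 4063, with Vcan at 0.22 (limma adjusted p = 0.264).

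Whether the medium response differed between THOC5 and GFP cells was tested with an interaction term. Has2 passed, with a response 1.29 ± 0.33 higher on the log2 scale in THOC5 cells (95% interval 0.57 to 2.01, limma adjusted p = 0.0331), and it was the 1 member of 7 that did, beside 9.22% of all genes (5.30% higher and 3.92% lower). Cd44 (-0.50 ± 0.15, limma adjusted p = 0.0568), Has1 (0.96 ± 0.34, 0.107) and Vcan (0.52 ± 0.18, 0.103) did not pass, and neither did Has3 (0.26 ± 0.40), Hyal1 (-0.21 ± 0.27) and Hyal2 (0.06 ± 0.19). The Has2 call held in 8 of 16 alternatives (adjusted p 0.0140 to 0.167). It was lost without any 1 library other than THOC5 growth replicate 2, with limma adjusted p = 0.0846 and 0.165 without GFP growth replicates 1 and 2, 0.154 and 0.0563 without GFP osteogenic replicates 1 and 2, 0.136 without THOC5 growth replicate 1, and 0.107 and 0.167 without THOC5 osteogenic replicates 1 and 2. Cd44 passed in 6 of 16 alternatives (0.0167 to 0.252), edgeR (0.0230), DESeq2 (0.0167) and the fit without THOC5 growth replicate 2 (limma adjusted p = 0.0358) among them, and Vcan in 3, one of which was DESeq2 (0.0442, range 0.0442 to 0.342). Scaling to library totals shifted the log2 median over all genes by -0.10 here, and the split of calls from 1197 higher and 885 lower to 887 and 1381.

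For osteogenic against growth medium in GFP cells the authors' deposited table lists log2 fold changes of -1.56 for Has2 (adjusted p = 0.000209), 0.49 for Cd44 (0.000140) and -0.51 for Vcan (0.00177). For THOC5 against GFP in osteogenic medium the authors' deposited table lists 1.71 for Has2 (adjusted p = 2.13e-05), 0.93 for Has1 (0.0484), -0.67 for Cd44 (7.16e-08) and 0.39 for Vcan (0.0173).

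Other genes of the pathway were taken from 7 lists, of which 93 genes were tested. In GFP cells 33 fell and 8 rose with osteogenic medium, and with THOC5 in osteogenic medium 36 were higher and 4 lower, again against the same GFP osteogenic libraries. Over all genes the shares were 10.6% lower and 10.3% higher in GFP cells, and 11.3% higher and 10.7% lower with THOC5 in osteogenic medium. With library totals as the scale these counts were 27 and 12, and 30 and 14. In THOC5 cells between media 0 of the 93 passed limma (8 at an unadjusted p under 0.05, 1 by edgeR and 0 by DESeq2), beside 0.540% of all genes, and in growth medium between THOC5 and GFP cells 0 passed limma (5 unadjusted, 0 by edgeR and 0 by DESeq2), beside 0.00443%. The lists were chosen with results of these data known, so they are given as counts.

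The first list holds enzymes that make the sugar nucleotides. Of 13 tested, 2 fell and 1 rose in GFP cells (median log2 0.03), and 3 were higher with THOC5 in osteogenic medium (median 0.03). In the latter, library totals as the scale gave 2 higher and 2 lower. Over all genes 20.8% passed in the former comparison and 22.0% in the latter, near the shares in this list. Pgm3, which isomerizes N-acetylglucosamine phosphate on the way to UDP-N-acetylglucosamine, stood at 192 and 222 normalized counts in GFP growth, 118 and 126 in GFP osteogenic, 173 and 196 in THOC5 growth, and 198 and 215 in THOC5 osteogenic libraries. Its log2 differences were -0.76 ± 0.13 between media in GFP cells (limma adjusted p = 0.00178) and 0.76 ± 0.13 with THOC5 in osteogenic medium (0.00168). Gfpt2, a form of the enzyme that commits fructose phosphate to the hexosamine pathway, had -0.52 ± 0.11 (limma adjusted p = 0.00705) and 0.66 ± 0.11 (0.00156). The first Gfpt2 call was lost without GFP growth replicate 2 (limma adjusted p = 0.0936) or GFP osteogenic replicate 1 (0.0798), in a range of 0.00311 to 0.0936.

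Hk1 and Hk2 are hexokinases, at the entry of glucose. Hk2 rose with osteogenic medium in GFP cells (log2 0.45 ± 0.12, limma adjusted p = 0.0186), and the call was lost without GFP growth replicate 1 (log2 0.26, limma adjusted p = 0.158) or either GFP osteogenic library (0.159 and 0.0782), in a range of 0.00422 to 0.159. It held in 12 of 17 alternatives, and was also lost with any value above 0 as the filter (0.0583) and with only the 4 libraries compared (0.115). Hk1 was higher with THOC5 in osteogenic medium (log2 0.61 ± 0.16, limma adjusted p = 0.0189), and that call was lost without either GFP osteogenic library (0.179 and 0.0926) or either THOC5 osteogenic library (0.161 and 0.105), in a range of 0.00407 to 0.179. It held in 11 of 17 alternatives, and was also lost with any value above 0 as the filter (0.0729) and with library totals as the scale (0.0784).

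Among genes that break hyaluronan down, the largest differences were in Cemip, which encodes a hyaluronan-binding protein needed for depolymerization in fibroblasts. Cemip stood at 25442 and 23316 normalized counts in GFP growth, 3025 and 5632 in GFP osteogenic, 28533 and 27524 in THOC5 growth, and 20302 and 24782 in THOC5 osteogenic libraries. Both GFP osteogenic libraries lay below all 6 others. Cemip fell 5.90-fold in GFP cells (log2 -2.56 ± 0.22, limma adjusted p = 2.29e-05) and was 5.43-fold higher with THOC5 in osteogenic medium (log2 2.44 ± 0.22, 2.70e-05). Cemip2, the transmembrane relative, had -0.92 ± 0.12 (limma adjusted p = 0.000339) and 0.90 ± 0.12 (0.000346).

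Gusb, the lysosomal beta-glucuronidase that removes sugars from hyaluronan fragments, had -0.59 ± 0.10 in GFP cells (limma adjusted p = 0.00144) and 0.49 ± 0.10 with THOC5 in osteogenic medium (0.00365), the latter lost without THOC5 osteogenic replicate 2 (limma adjusted p = 0.0588, range 0.00163 to 0.0588). Of 6 tested breakdown genes these 3 fell in GFP cells, and these 3 were higher with THOC5 in osteogenic medium, with list medians of -0.39 and 0.30. The shares over all genes were 10.6% lower in the former comparison and 11.3% higher in the latter.

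Hyaluronan receptors and binding proteins other than CD44 gave 4 falls and 1 rise of 19 tested in GFP cells, and 4 higher and 0 lower with THOC5 in osteogenic medium. Their medians were 0.07 and 0.04. Over all genes 20.8% passed in the former comparison and 22.0% in the latter, where the share in this list was near it. With library totals as the scale 3 were higher and 3 lower with THOC5 in osteogenic medium, and by edgeR 4 and 2. Itih4, of the inter-alpha-trypsin inhibitor heavy chain family, was at 31.5 and 26.6 normalized counts in GFP growth, 3.46 and 5.37 in GFP osteogenic, 54.1 and 46.8 in THOC5 growth, and 33.6 and 28.2 in THOC5 osteogenic libraries. It had log2 differences of -2.49 ± 0.31 (limma adjusted p = 0.000238) and 2.58 ± 0.31 (0.000174) on a low count. Itih2, whose heavy chain is bound covalently to hyaluronan, had -0.61 ± 0.08 (limma adjusted p = 0.000504) and 0.60 ± 0.08 (0.000512). Tlr2, an innate receptor that can respond to hyaluronan fragments, had -0.72 ± 0.11 (limma adjusted p = 0.000747) and 0.94 ± 0.11 (0.000121). Itih5, a further heavy chain gene, was the other that fell (log2 -0.69 ± 0.20, limma adjusted p = 0.0316), and Layn, for a hyaluronan-binding lectin, was the 1 that rose (0.39 ± 0.11, 0.0280). Both were named after their values were seen, and Itih5 was also higher with THOC5 in osteogenic medium (log2 0.77 ± 0.20, limma adjusted p = 0.0177).

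Partners and sheddases of CD44 were mixed, with 4 falls and 3 rises of 13 tested in GFP cells, and 5 higher and 2 lower with THOC5 in osteogenic medium. With library totals as the scale both comparisons gave 4 in each direction. Among all genes 10.6% fell and 10.3% rose in the former comparison, and 11.3% were higher and 10.7% lower in the latter. Mmp14, the membrane metalloproteinase that can shed CD44, stood at 5845 and 5648 normalized counts in GFP growth, 2794 and 3121 in GFP osteogenic, 5951 and 6038 in THOC5 growth, and 5694 and 6105 in THOC5 osteogenic libraries. It had log2 differences of -0.96 ± 0.09 (limma adjusted p = 2.83e-05) and 1.00 ± 0.09 (2.00e-05). Ank3, an ankyrin that links membrane proteins to spectrin, had -0.75 ± 0.12 (limma adjusted p = 0.000958) and 0.71 ± 0.12 (0.00123). Esrp2, a splicing factor for epithelial exons of Cd44, had -1.09 ± 0.18 (limma adjusted p = 0.00148) and 1.21 ± 0.18 (0.000688), each of which held in 16 of 17 alternatives. The former was lost without GFP growth replicate 1 (limma adjusted p = 0.0524, range 7.28e-05 to 0.0524) and the latter with only the 4 libraries compared (0.0506, range 3.96e-06 to 0.0506).

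The genes of this list outside the naming rule were named after their values were seen. Adam10, a sheddase of CD44, had -0.61 ± 0.11 in GFP cells (limma adjusted p = 0.00203) and 0.56 ± 0.11 with THOC5 in osteogenic medium (0.00317), where the sheddase gene Adam17 was also higher (0.30 ± 0.09, 0.0314). The 3 that rose in GFP cells, in the direction of Cd44, were Ezr, Rdx and Spp1. Ezr and Rdx encode ezrin and radixin, which link the tail of CD44 to actin. Ezr rose in GFP cells (log2 0.42 ± 0.11, limma adjusted p = 0.0176) and was lower with THOC5 in osteogenic medium (-0.39 ± 0.11, 0.0237). Rdx had 0.42 ± 0.09 (limma adjusted p = 0.00849) and -0.44 ± 0.09 (0.00602). Msn, for the related moesin, was more abundant than either, at a mean of 4523 normalized counts in GFP growth libraries. It did not pass in GFP cells (log2 0.10 ± 0.08, limma adjusted p = 0.421). Spp1, encoding osteopontin, a CD44 ligand, rose in GFP cells (log2 1.49 ± 0.31, limma adjusted p = 0.00587) but its 2 GFP osteogenic libraries differed, at 1192 and 468 normalized counts.

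Versican and aggrecan carry chondroitin sulfate, and of 24 tested genes for its synthesis 7 fell and 2 rose in GFP cells (median log2 -0.09), while 9 were higher and 2 lower with THOC5 in osteogenic medium (median 0.04). With library totals as the scale 4 fell and 3 rose, and 7 were higher and 4 lower. The shares over all genes by the main scale were 10.6% lower and 10.3% higher in GFP cells. They were 11.3% higher and 10.7% lower with THOC5 in osteogenic medium. Chst11, a chondroitin sulfotransferase, stood at 1313 and 978 normalized counts in GFP growth, 616 and 619 in GFP osteogenic, 1349 and 1220.5 in THOC5 growth, and 981 and 1127 in THOC5 osteogenic libraries. It had log2 differences of -0.88 ± 0.13 (limma adjusted p = 0.000728) and 0.77 ± 0.13 (0.00151). Chst12, a second sulfotransferase of that kind, had -0.66 ± 0.13 (limma adjusted p = 0.00352) and 0.74 ± 0.13 (0.00165), the former lost without GFP growth replicate 1 (limma adjusted p = 0.0739) or GFP osteogenic replicate 1 (0.0597), in a range of 0.000577 to 0.0739. The 2 that rose in GFP cells, B4galt7 (log2 0.49 ± 0.15, limma adjusted p = 0.0330) and Csgalnact2 (0.48 ± 0.11, 0.0115), were the 2 lower with THOC5 in osteogenic medium (-0.57 ± 0.15, 0.0153, and -0.53 ± 0.11, 0.00656). They encode a linker galactosyltransferase and an enzyme that starts the chondroitin chain, and were named after their values were seen. Dse, the epimerase that turns chondroitin into dermatan sulfate, had -0.52 ± 0.08 (limma adjusted p = 0.00112) in GFP cells. Chst15, which adds a further sulfate, was higher with THOC5 in osteogenic medium (log2 0.67 ± 0.11, limma adjusted p = 0.000974).

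The protease list holds ADAMTS enzymes that cleave versican or aggrecan and Timp3, which encodes an inhibitor of such enzymes. Adamts1, Adamts5, Adamts9 and Adamts15 had log2 differences of greater size than Vcan, Adamts15 on a low count. Of 7 tested, 6 of them ADAMTS genes, 5 fell and 0 rose in GFP cells (median log2 -1.46), and 5 were higher and 0 lower with THOC5 in osteogenic medium (median 1.36), and edgeR and DESeq2 gave the same counts. With library totals as the scale 4 fell in GFP cells. By limma on the main scale, 10.6% of all genes fell in GFP cells and 11.3% were higher with THOC5 in osteogenic medium. Timp3 did not pass in GFP cells (log2 -0.28 ± 0.13, limma adjusted p = 0.165), and it was named after its values were seen. Adamts1, a versican-cleaving protease, stood at 1393 and 1361 normalized counts in GFP growth, 353 and 470.5 in GFP osteogenic, 1507 and 1620 in THOC5 growth, and 1310.4 and 1306 in THOC5 osteogenic libraries. It fell 3.37-fold (log2 -1.75 ± 0.12, limma adjusted p = 5.59e-06) and was 3.20-fold higher with THOC5 (1.68 ± 0.12, 6.63e-06). Adamts9, a relative that also cleaves versican, had -1.64 ± 0.12 (limma adjusted p = 9.66e-06) and 1.65 ± 0.12 (8.26e-06). The remaining 2 that passed, named after their values were seen, were Adamts15 and Adamts4. Adamts15 had log2 differences of -2.41 ± 0.38 (limma adjusted p = 0.00104) and 2.38 ± 0.38 (0.00104). Its means were 13.7 normalized counts in GFP growth and 1.76 in GFP osteogenic libraries. Adamts4 had -0.41 ± 0.09 (limma adjusted p = 0.00969) and 0.53 ± 0.09 (0.00193). Under the alternatives neither gene was recomputed beyond the list counts above.

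Adamts5, the main aggrecanase of mouse cartilage, stood at 2278 and 2518 normalized counts in GFP growth, 632 and 1194 in GFP osteogenic, 2594 and 2495.5 in THOC5 growth, and 2264 and 2213 in THOC5 osteogenic libraries. It had log2 differences of -1.46 ± 0.21 (limma adjusted p = 0.000636) and 1.36 ± 0.21 (0.000886). The first call held in 15 of 17 alternatives (range 1.82e-05 to 0.0538) and was lost without GFP growth replicate 2 (limma adjusted p = 0.0538) and with only the 4 libraries compared (0.0509). The second held in 16 of 17 (range 3.07e-05 to 0.0818) and was lost with only the 4 libraries compared (0.0818), and its log2 difference was 0.91 without GFP osteogenic replicate 1. Acan, whose core protein ADAMTS5 cleaves, had at most 1 read per library in the same cells.

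The last list holds matrix proteins taken as partners of versican or aggrecan, or as relatives of such partners. Direct binding by each was not checked. Of 11 tested, 8 fell and 1 rose in GFP cells (median log2 -0.78). With THOC5 in osteogenic medium 7 were higher and 0 lower (median 0.79). With library totals as the scale 7 fell and 1 rose, and 6 were higher and 1 lower. Among all genes, by the main scale, 10.6% fell and 10.3% rose in GFP cells. With THOC5 in osteogenic medium 11.3% were higher and 10.7% lower. The tenascins led this list. Tnc, whose product binds the lectin domain of such proteoglycans, stood at 10082 and 8442 normalized counts in GFP growth, 1584 and 2347 in GFP osteogenic, 11633 and 11108 in THOC5 growth, and 7957 and 9506 in THOC5 osteogenic libraries. It had log2 differences of -2.26 ± 0.16 (limma adjusted p = 8.41e-06) and 2.17 ± 0.16 (9.50e-06). Tnxb had -2.11 ± 0.14 (limma adjusted p = 4.36e-06) and 1.95 ± 0.14 (7.13e-06), and Tnr, at 16.4 to 112 normalized counts, -2.19 ± 0.21 (limma adjusted p = 4.26e-05) and 2.06 ± 0.21 (5.63e-05). The rise was of Matn2, a matrilin named after its values were seen (log2 0.39 ± 0.10, limma adjusted p = 0.0155), and DESeq2 called 0 rises in this list.

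**Figure D4:**
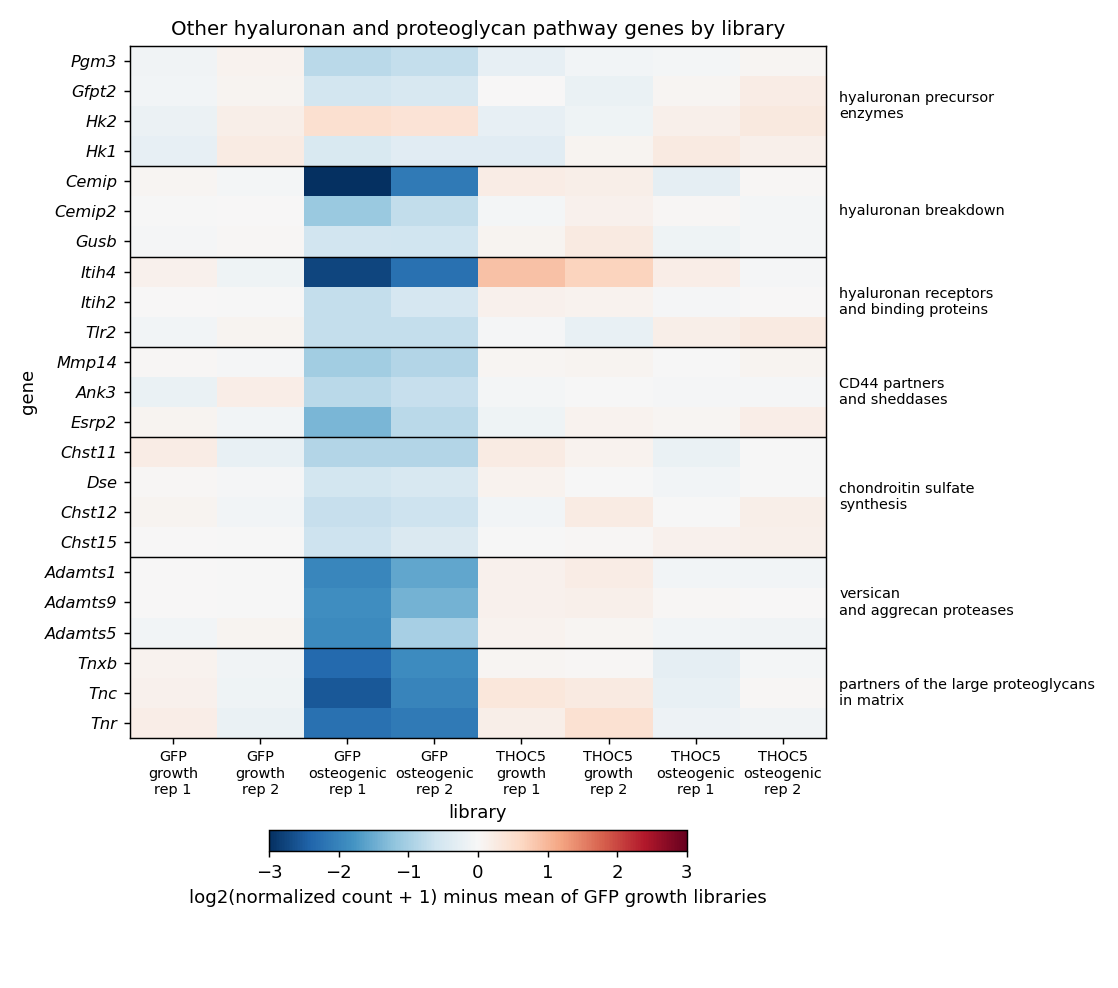
Heat map of 23 named genes from the 7 lists (y axis, grouped by list) in the 8 libraries (x axis), coloured by log2(normalized count + 1) minus the mean of the GFP growth libraries. The lowest cells are in the GFP osteogenic columns, deepest for Cemip, Itih4, Tnc, Tnr and Tnxb, with Hk2 higher there, and the THOC5 osteogenic columns stay near the GFP growth level. The genes were chosen for passing comparisons that contain the GFP osteogenic libraries. That those columns stand out therefore follows from the choice.

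Markers of cell types were read in the same libraries. For the counts below, the shares over all genes in GFP cells were 10.6% lower and 10.3% higher. With THOC5 in osteogenic medium they were 11.3% higher and 10.7% lower, and no marker count was compared with them by a test. All 10 smooth muscle markers were detected, with a summed level of 25617 to 29851 normalized counts in GFP growth, 12403 to 14328 in GFP osteogenic, 31984 to 32832 in THOC5 growth and 26129 to 28171 in THOC5 osteogenic libraries, and 8 of 10 fell in GFP cells. The 12 adventitial fibroblast markers summed to 35094 to 39264, 11705 to 14960, 42925 to 43848 and 36613 to 41022 in the same order, and 5 of 12 fell in GFP cells (Pdgfra, Lum, Dcn, Serpinf1 and C3, named after their values were seen) and 8 of 12 were higher with THOC5 in osteogenic medium. Acta2 made up most of the first sum, with means of 21362 in GFP growth and 10332 in GFP osteogenic libraries. C3 and Dcn, at means of 14971 and 13283, made up most of the second in GFP growth. The 2 smooth muscle markers that did not pass in GFP cells were Des (log2 1.08) and Synpo2 (-0.02). Ly6a (0.16) and Cd34 (0.03) were among the 7 fibroblast markers that did not. These too were named after their values were seen. Both sums were lowest in the GFP osteogenic pair, as were Has2, Vcan and the named proteases and tenascins, and their part in those results was not tested. Of 12 macrophage markers 8 were in the table, and their sum was 946 to 1182, 682 to 698, 1052 to 1233 and 961 to 1140.5. In GFP cells 2 of 6 tested fell (Lyz2 and Cd14) and 1 rose, Cd68 (log2 0.56 ± 0.12, limma adjusted p = 0.00729), all named after their values were seen. Their defining members Ptprc, Adgre1 and Itgam had 0 to 2 reads per library. In the GFP osteogenic pair, where Cd44 was highest, Ptprc had 0 and 0 reads, Adgre1 1 and 2, Itgam 1 and 1, and Fcer1g, another marker of the list, 3 and 2. In the GFP growth pair Ptprc had 1 and 0 and the other 3 had 0. The part of these markers in the result for Cd44 was not tested. The 9 endothelial markers in the table summed to 85.0 to 165 over all libraries. Of 12 tested cartilage markers 5 fell (Sox5, Col2a1, Col11a1, Col10a1 and Matn3) and 3 rose (Sox9, Col9a3 and Col11a2) in GFP cells. These were named after their values were seen. Col2a1, the main cartilage collagen, fell (log2 -1.22, limma adjusted p = 0.00198), from 94.4 and 69.1 to 36.3 and 32.2 normalized counts. Those that rose had log2 differences of 0.84 for Sox9 (limma adjusted p = 0.0218), 1.27 for Col9a3 (0.0234) and 2.34 for Col11a2 (0.00465). Col11a2 went from a mean of 4.83 to 26.4 normalized counts and Matn3 from 3.74 to 0.432, both on low counts. DESeq2 called 3 lower and 2 higher in this list, and library totals as the scale gave 3 and 3.

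The genes whose pattern was most like that of each main member were ranked by Pearson r of log2(normalized count + 1) over the 8 libraries. The ranking covered 10364 genes with a mean of at least 50 normalized counts, without genes of predicted-model names (Gm or Rik). The points share libraries and size factors, and the 2 GFP osteogenic libraries stand apart, so the values describe likeness and carry no p. Nearest to Has2 were Hspb6 (0.995), a small heat shock protein gene of smooth muscle, Col3a1 (0.994), a fibrillar collagen gene, and Calm3 (0.994), a calmodulin gene. Col3a1 stood at 1375 and 1694 normalized counts in GFP growth, 346 and 506 in GFP osteogenic, 1623 and 2233 in THOC5 growth, and 1707 and 1681 in THOC5 osteogenic libraries. Nearest to Vcan were Top2a (0.980), the topoisomerase of dividing cells, Rubcn (0.977), a regulator of autophagy, and Pygl (0.977), a glycogen phosphorylase gene. Top2a stood at 2320.2 and 3111, then 1616 and 1885, then 2337 and 2829.7, then 2629 and 2329 normalized counts in the same order of groups. Nearest to Cd44 were Clcn3 (0.992), a chloride-proton exchanger gene, Taf15 (0.990), an RNA-binding protein gene, and Jmjd1c (0.987), of the histone demethylase family.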

How the data were processed

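Poly(A) RNA from mouse smooth muscle cells was sequenced after unstranded TruSeq preparation, per the labels' protocols. The deposited table holds a signal for each gene and library. A test on the values showed it to be a read count over a size factor of the library: 100% gave whole reads within 1e-06. The authors' deposited table also holds log2 fold changes, a test statistic (score) and p-values for 4 comparisons, per the file headers. The submitters' processing notes list FastQC, Bowtie2, SAMtools, MACS2 and mm10, with no role or version. How reads were counted, and on which annotation, is not given in the sources used here. Groups follow the sample titles, columns were matched through the labels' description, and 0 per-sample columns went unused. The RNA immunoprecipitation named in the series design was not analysed here.

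limma 3.58.1 (R 4.3.3, trend option) was fitted to log2(normalized count + 1), which understates changes of low genes, for the 22575 genes that reached 1 normalized count in 2 or more libraries. A single fit took all 4 groups with 4 residual degrees of freedom and no replicate block. Benjamini-Hochberg adjustment ran over all genes tested, two-sided, with a threshold of 0.05. edgeR 4.0.16 and DESeq2 1.42.0 on the recovered reads were alternatives, and the scripts were tested on simulated data. Members and lists were chosen with earlier results of these data known. Beside the members the text names up to 3 genes per list with the smallest p past the threshold in the GFP medium comparison and in THOC5 against GFP in osteogenic medium, Has2os and Thoc5, and Naa80 for its overlap. For Has2, Vcan and Cd44 it names the 3 most alike genes, and any gene outside this rule is marked as named after its values were seen. Coordinates and exon lengths come from GENCODE M21 on GRCm38 and promoters from RefSeq on GRCm38.p6.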

Additional observations from a re-analysis of the deposited data

Results flagged for a closer look

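The response to osteogenic medium differed between THOC5 and GFP cells, by the interaction term of limma, for 1 of the 7 tested members and 23 of the 93 tested pathway genes, beside 9.22% of all genes. Given here are Has2 and the 19 of those 23 that the naming rule chose. Values are the log2 response in THOC5 cells minus that in GFP cells, with the SE for 2 libraries a group. For Has2 it was 1.29 ± 0.33 (limma adjusted p = 0.0331). Among sugar nucleotide enzymes it was 0.92 ± 0.18 for Pgm3 and 0.76 ± 0.16 for Gfpt2, and among breakdown genes 2.24 ± 0.31 for Cemip and 0.87 ± 0.17 for Cemip2. Binding proteins and receptors gave 1.80 ± 0.43 for Itih4, 0.48 ± 0.12 for Itih2 and 1.07 ± 0.15 for Tlr2. CD44 partners gave 0.94 ± 0.12 for Mmp14, 0.74 ± 0.16 for Ank3 and 1.23 ± 0.26 for Esrp2. Chondroitin sulfate genes gave 0.42 ± 0.12 for Dse, 0.65 ± 0.18 for Chst12 and 0.65 ± 0.15 for Chst15. The proteases gave 1.50 ± 0.17 for Adamts1, 1.52 ± 0.17 for Adamts9 and 1.28 ± 0.30 for Adamts5, and the tenascins 1.90 ± 0.20 for Tnxb, 1.87 ± 0.23 for Tnc and 1.75 ± 0.29 for Tnr. All 20 values were above 0. The other 4, named after their values were seen, were Adamts4 (0.51), Fbn1 (0.89), Fbln2 (0.80) and Efemp1 (1.24).

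Of these 20 calls 0 held without GFP growth replicate 1 and 1 held without GFP growth replicate 2. The number that held was 9 and 17 without GFP osteogenic replicates 1 and 2, 9 and 15 without THOC5 growth replicates 1 and 2, and 10 and 7 without THOC5 osteogenic replicates 1 and 2. The lone library left in a group is then assumed to vary like the other groups. The genes were named for passing comparisons that share the GFP osteogenic libraries with this term, so the count is no independent support.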

How the results depend on the processing

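Counts of calls, and the results of the members, of Thoc5 and of list genes chosen by the naming rule, were recomputed under 17 alternatives (16 for the interaction). In THOC5 cells and in growth medium 0 members passed under any of them. With any value above 0 as the filter, which tests more genes, 37 genes passed in THOC5 cells, 0 in growth medium and 1122 in the interaction, with 0 members. With only the 4 libraries compared, which leaves fewer residual degrees of freedom, 2293 genes passed in GFP cells, 0 in THOC5 cells, 0 in growth medium, and 3030 in osteogenic medium with 2 members. Members passing the interaction numbered 3 with a filter of at least 10 in 2 libraries, 2 by edgeR, 3 by DESeq2, 2 with library totals and 3 with a replicate block, which added Cd44 (adjusted p = 0.0412) and Vcan (0.0460), and the cause was not tested. The replicate block changed no other member's call, and 4723 genes passed with it in GFP cells. Same-numbered libraries had deviations that correlated at -0.0234 to 0.0466, so no strong shared effect of the numbers was seen. With 2 libraries a group this cannot tell whether same-numbered libraries were prepared together.

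Leaving out 1 library at a time gave 2067 to 4496 genes and 1 to 3 members in GFP cells, 8 to 106 genes in THOC5 cells, 0 to 1 in growth medium, 1987 to 4753 genes and 2 to 4 members in osteogenic medium, and 0 to 1751 genes and 0 to 2 members in the interaction. Small differences that did not pass changed sign. Hyal2 in GFP cells was 0.023 by edgeR, 0.0067 by DESeq2 and 0.14 with library totals. Has3 in THOC5 cells was -0.0026 with a pseudocount of 5, -0.038 by edgeR and -0.033 by DESeq2, Cd44 in THOC5 cells 0.029 and the Hyal2 interaction -0.055 with library totals. Without 1 library, log2 differences in THOC5 cells ran from -0.47 to 0.016 for Has2, -0.31 to 0.31 for Has3, -0.025 to 0.44 for Hyal1, -0.079 to 0.19 for Hyal2, -0.13 to 0.12 for Cd44, -0.075 to 0.12 for Vcan and -0.21 to 0.40 for Thoc5. In growth medium they ran from -0.16 to 0.10 for Has1, -0.39 to 0.12 for Hyal1 and -0.33 to 0.083 for Vcan, and elsewhere from -0.18 to 0.17 for Hyal2 in GFP cells and -0.32 to 0.13 for Has3 in osteogenic medium. Interaction values ran from -0.055 to 0.57 for Has3, -0.47 to 0.051 for Hyal1, -0.12 to 0.23 for Hyal2 and -0.22 to 0.16 for Hk2. Depth limits the synthases, with 24 to 111 reads per library, and Acan most.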
